A study of Mus musculus with 17 samples.

Results

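The 10 genes described here are genes of the myeloid lineage that are known targets of PU.1: the growth factor receptor genes Csf1r, Csf2ra and Csf3r, the transcription factor genes Cebpa and Cebpb, the surface and lysosomal protein genes Itgam, Fcgr3, Cd68 and Ptprc, and the cytoplasmic tyrosine kinase gene Btk. They were chosen by name, with earlier results of these data known. They are 10 of 26029 genes in the count table of model 1 and 9 of 24659 in that of model 2. Itgam has no row in the latter. RNA-seq was run on erythroid blasts from the spleens of 17 TgSpi1 mice, which all carry a transgene that expresses Spi1 constitutively and can give rise to a preleukaemic disorder of the erythroid lineage. The blasts were grown with erythropoietin and diluted 2 days before RNA was extracted, and each library comes from 1 mouse. Preleukaemic blasts need erythropoietin and do not form tumours, whereas leukaemic blasts grow without it and are tumorigenic.

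In model 1, on a mixed DBA2J x FVB/N background, the groups were TgSpi1FA+/+ preleukaemic (mice preleukemic_445, preleukemic_479, preleukemic_451 and preleukemic_138, named as in the labels), TgSpi1FA-/- preleukaemic (preleukemic_77, preleukemic_224 and preleukemic_40) and TgSpi1FA-/- leukaemic (leukemic_26, leukemic_28 and leukemic_39). TgSpi1FA-/- mice, which came from a further mating of TgSpi1 Fanca-heterozygous with Fanca-heterozygous mice and are heterozygous for the transgene, lack Fanca, a gene of the Fanconi anaemia DNA repair pathway. In model 2, on DBA2J, the groups were TgSpi1FA+/+ preleukaemic (preleukemic_633, preleukemic_663, preleukemic_812 and preleukemic_837) and TgSpi1FA+/+ leukaemic (leukemic_601, leukemic_606 and leukemic_921), where leukaemia emerged after serial blood transfusions. The labels of preleukemic_77, preleukemic_224 and preleukemic_40 are not of one voice: the titles and the stage field say preleukaemic, while the source field and the column names say leukaemic, and the titles were followed. Model 2 was sequenced with another fragmentation protocol, so strain, protocol and model cannot be told apart in any comparison between both tables. Where TgSpi1FA-/- blasts are part of such a comparison, genotype cannot be told apart from them either. The count tables do not separate transcripts of the Spi1 transgene from those of the endogenous gene.

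PU.1, the product of Spi1, is an ETS family transcription factor that binds DNA at purine-rich sites around a GGAA core and is required for the development of macrophages, granulocytes and B cells. In myeloid cells it acts with C/EBP factors at the promoters and enhancers of receptor, adhesion and signalling genes, which include the members described here. In erythroid progenitors PU.1 normally declines as GATA-1 takes over, and its forced expression in TgSpi1 mice blocks the maturation of these cells.

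The libraries of model 1 held 29964576 to 38217654 counts and those of model 2 held 37726753 to 40514205. Levels are given as CPM (the count of a gene relative to the total of its library) after TMM scaling, and a count of 0 allows up to 3 counts, which is at most 0.0985 CPM in model 1 and 0.0851 CPM in model 2. Fanca, the deleted gene, was between 28.2 and 83.5 CPM in the TgSpi1FA+/+ and between 0.615 and 2.30 CPM in the TgSpi1FA-/- libraries of model 1. The libraries of preleukemic_445 and preleukemic_479 were closer to each other than other replicate pairs, the chi-square of their counts over its degrees of freedom being 8.53 against 114 to 372 in other pairs of model 1, but still beyond sampling noise. They were kept apart as the labels give them, but this value does not show that they came from separate mice. A second table of counts was deposited for 7 mice of model 1, the TgSpi1FA+/+ preleukaemic and TgSpi1FA-/- leukaemic ones, and how its counts were made otherwise than the first is not given in the sources used here. Over 13078 genes, 6 of the 7 mice correlated best with their own number across both tables, while preleukemic_445 of the second table correlated better with preleukemic_479 (r = 0.540) than with its own number (r = 0.512) of the first, so its identity and the n of 4 are in doubt. Spi1 was at 604 and 636 CPM in these mice in the first table and at 801 and 261 CPM in the second. Markers of erythroid cells were over 3 counts in some library of each model for 10 of 10 genes. Their summed level was 2233 to 5324 CPM in model 1 and 2177 to 5323 CPM in model 2. The sum was led by Tfrc, at a mean of 1890 CPM in model 1 and 1977 CPM in model 2. As these are bulk samples, fewer cells of a type and less RNA per cell cannot be told apart.

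The stretches of 250 bases before the RefSeq transcription starts (GRCm38.p6) are printed for the 4 members whose stretch overlaps no annotated exon. They show what precedes these starts. The capitals mark the PU.1 core letters GAGGAA, or TTCCTC where the match lies on the other strand. For Btk, on the minus strand at chrX:134583141-134583390, and for Cebpb, on the plus strand at chr2:167688665-167688914, there was no match. The Btk stretch lies within the span of the gene in GENCODE M21 (chrX:134542336-134583570), which places its start further upstream than RefSeq. For Cd68, on the minus strand at chr11:69666171-69666420, there was 1 match, at position -225 from the start, and for Itgam, on the plus strand at chr7:128062390-128062639, there was 1 at -84 and 1, on the other strand, at -15.
Btk: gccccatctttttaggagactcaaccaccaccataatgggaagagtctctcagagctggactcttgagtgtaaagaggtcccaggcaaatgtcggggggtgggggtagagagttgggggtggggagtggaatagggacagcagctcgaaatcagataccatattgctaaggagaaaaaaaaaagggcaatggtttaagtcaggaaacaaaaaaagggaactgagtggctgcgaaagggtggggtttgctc
Cebpb: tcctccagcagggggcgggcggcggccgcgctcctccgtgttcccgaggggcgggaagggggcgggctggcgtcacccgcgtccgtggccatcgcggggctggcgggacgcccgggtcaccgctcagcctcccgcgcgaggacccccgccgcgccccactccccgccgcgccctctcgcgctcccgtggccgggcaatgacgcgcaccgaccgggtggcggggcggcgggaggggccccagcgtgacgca
Cd68: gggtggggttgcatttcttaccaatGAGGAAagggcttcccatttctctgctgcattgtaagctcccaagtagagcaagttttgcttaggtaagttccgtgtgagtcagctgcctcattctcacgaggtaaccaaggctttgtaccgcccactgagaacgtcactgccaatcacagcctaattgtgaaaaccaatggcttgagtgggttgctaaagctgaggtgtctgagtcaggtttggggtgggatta
Itgam: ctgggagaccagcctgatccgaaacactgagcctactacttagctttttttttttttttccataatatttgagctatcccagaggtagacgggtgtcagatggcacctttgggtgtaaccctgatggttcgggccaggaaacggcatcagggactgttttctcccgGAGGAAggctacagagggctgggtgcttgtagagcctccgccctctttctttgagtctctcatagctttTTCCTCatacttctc

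A RefSeq window was at hand for 9 of the 11 genes, members and Spi1 together, and GAGGAA on one strand or the other was in a window of 6 of those 9 members. Counted by window, 7 of the members' 11 windows held these letters, against 23.3% of all 32851 windows of 250 bases. Fcgr3 and Ptprc have overlapping windows, and those of Fcgr3 hold the same match, which is thus counted in each. The count by gene has no share over all genes beside it. The longer GAGGAAGT, which contains GAGGAA, was in 2.44% of all windows and in 0 of the members' windows. Btk, Cebpa and Cebpb had no match, which says only that these letters are not in these windows.

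The members fell into 3 levels of expression. Csf2ra, Cebpb, Cd68 and Btk were over 3 counts in each of the 17 libraries, Csf3r and Itgam in none, and Csf1r, Cebpa, Fcgr3 and Ptprc in some. Per kilobase of exons, Btk was the most abundant member in both models, with a mean of 80.1 CPM per kb in model 1, where 95.9% of the tested genes were lower, and of 81.1 CPM per kb in model 2. Spi1 itself was at 214 and 81.0 CPM per kb. In model 1 Btk was followed by Cebpb (10.7 CPM per kb), Csf2ra (2.63) and Cd68 (2.06), and in model 2 by Cd68 (5.24), Csf2ra (1.36) and Cebpb (0.318). In the second table of model 1 the order was the other way round, with Cd68 at 6.42, Csf2ra at 3.11 and Cebpb at 1.02 CPM per kb.

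The order was not the same in each library. Btk stood above Cebpb per kilobase in 9 of the 10 libraries of model 1, the exception being leukemic_39, with 3.12 for Btk and 23.8 CPM per kb for Cebpb. This exception was not seen in the second table, with 8.41 for Btk and 0.472 CPM per kb for Cebpb. Csf2ra and Cd68 overlapped between libraries and cannot be ordered in model 1. Fcgr3, at 0.360 CPM per kb in model 1, Cebpa, Csf1r and Ptprc, each under 0.11 CPM per kb in both models, had ranges that overlapped and included 0, and so could not be ordered either.

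**Figure D1:**
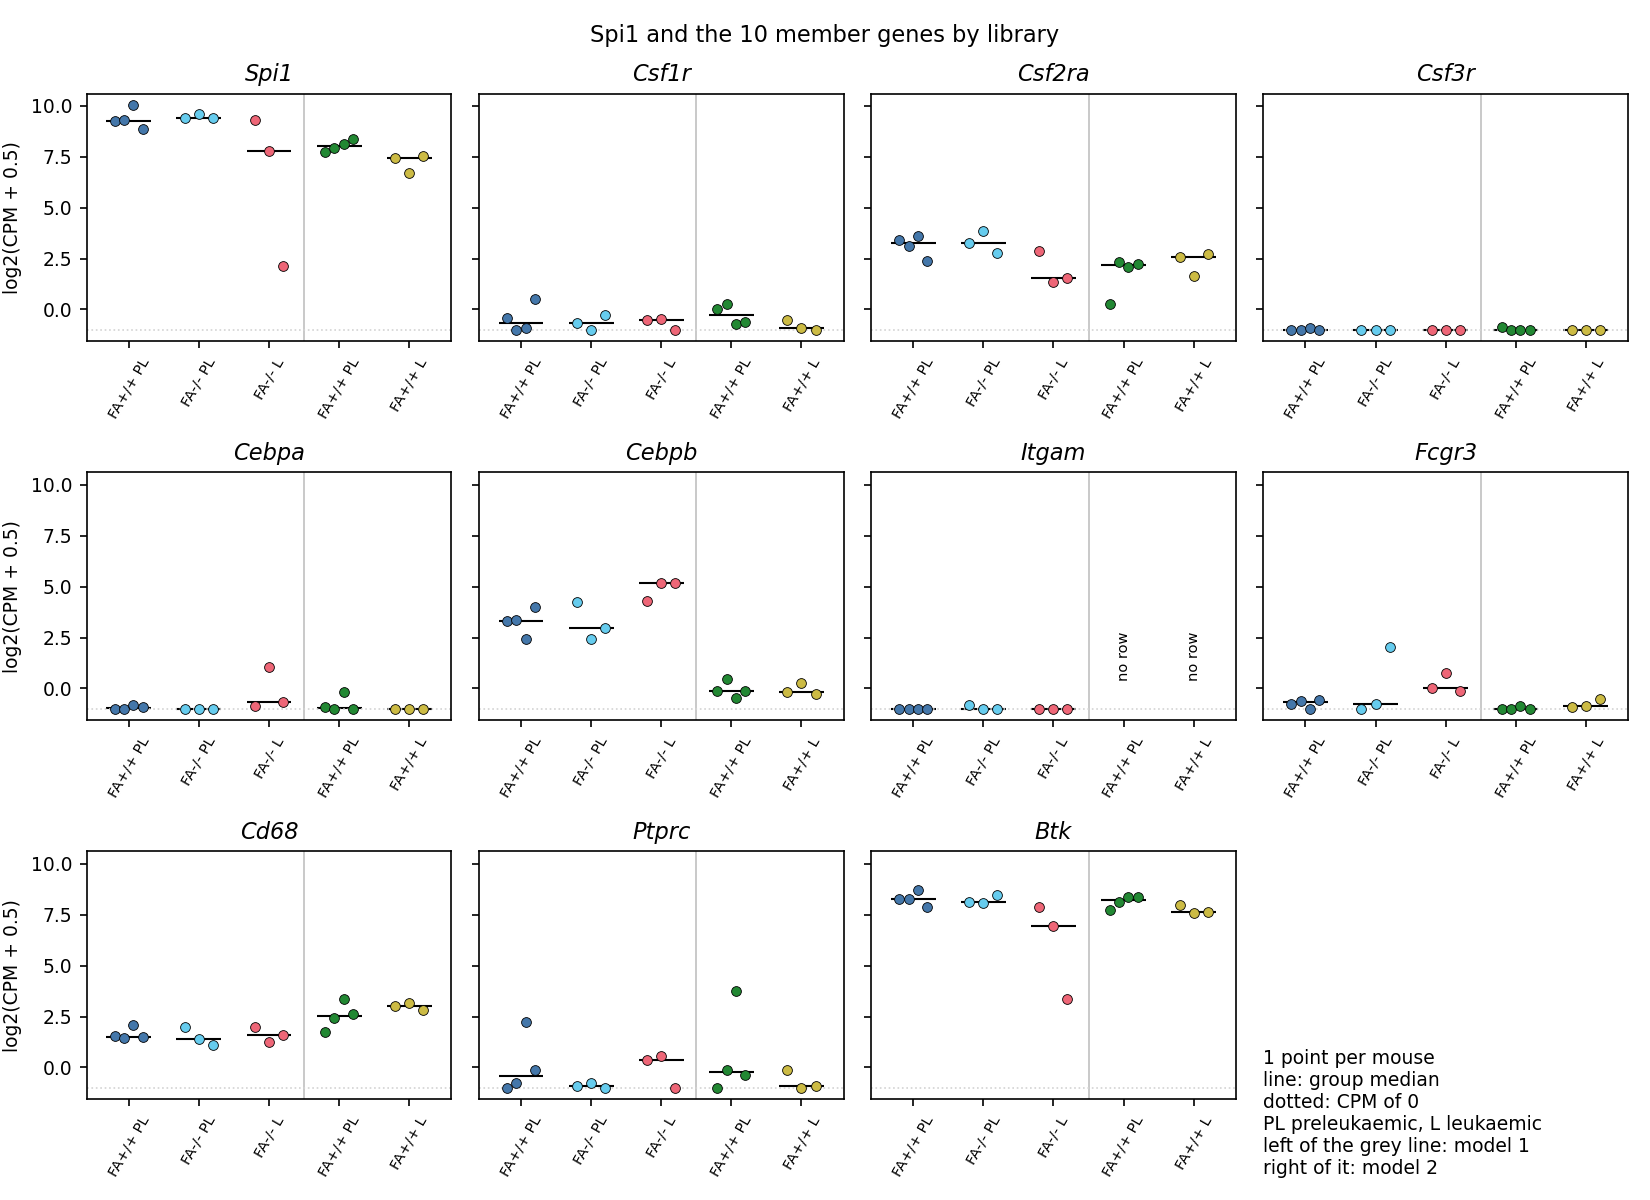
Each panel shows log2(CPM + 0.5) of Spi1 or of 1 member, with 1 point per mouse, the 5 groups along the x axis, a line at each group's median and a dotted line at a CPM of 0. Spi1 and Btk sit well above the other genes except in mouse leukemic_39, and Csf3r and Itgam lie on the dotted line.

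Spi1 (ENSMUSG00000002111, chr2:91082390-91115756, plus strand) is the gene against which the members were read. In the preleukaemic TgSpi1FA+/+ blasts of model 1 it was at 604, 636, 1061 and 467 CPM in preleukemic_445, preleukemic_479, preleukemic_451 and preleukemic_138. In the preleukaemic TgSpi1FA-/- blasts it was at 686, 781 and 670.0 CPM in preleukemic_77, preleukemic_224 and preleukemic_40, and in the leukaemic ones at 629.9, 219.7 and 3.88 CPM in leukemic_26, leukemic_28 and leukemic_39. Every leukaemic TgSpi1FA-/- library thus lay below every preleukaemic TgSpi1FA-/- one, leukemic_26 by little, while leukemic_26 lay above preleukemic_445 and preleukemic_138 of TgSpi1FA+/+, and leukemic_39 had 153 counts. In model 2 Spi1 was at 215, 243, 274 and 332 CPM in the preleukaemic preleukemic_633, preleukemic_663, preleukemic_812 and preleukemic_837 and at 174, 103 and 188 CPM in the leukaemic leukemic_601, leukemic_606 and leukemic_921. These groups of model 2 did not overlap either.

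The leukaemic change of Spi1 did not pass the test in either model. In model 1 the leukaemic mean was 284 ± 318 (SD, n = 3) against 712 ± 59.8 CPM (SD, n = 3), a log2 fold change of -1.32 ± 1.10 (SE) with an adjusted p of 0.443 by edgeR's quasi-likelihood test with Benjamini-Hochberg adjustment. For model 2 it was 155 ± 45.6 (SD, n = 3) against 266 ± 50.1 CPM (SD, n = 4), a log2 fold change of -0.78 ± 0.26 with an adjusted p of 0.182 in edgeR. The exact two-sided permutation test gave p = 0.1 in model 1 and p = 0.0571 in model 2, the smallest values that 3 against 3 and 4 against 3 mice allow.

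Btk (ENSMUSG00000031264, chrX:134542336-134583570, minus strand) encodes Bruton tyrosine kinase, which acts below the B cell receptor and Fc receptors. Its level in the preleukaemic TgSpi1FA+/+ blasts of model 1 was 304, 305, 417 and 238 CPM in the order of mice given for Spi1. It was 281, 265 and 348 CPM in the preleukaemic and 232, 122 and 9.82 CPM in the leukaemic TgSpi1FA-/- blasts, the last value in leukemic_39 with 387 counts. The leukaemic libraries lay below every preleukaemic library of model 1, those of both genotypes included. This did not hold in the second table, as leukemic_26 at 202.2 CPM lay above preleukemic_138 at 193.2 CPM. In model 2 Btk was at 214, 277, 329 and 326 CPM in preleukaemic and at 249, 191 and 201 CPM in leukaemic blasts, and these groups overlapped.

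On the log2 scale Btk differed by -1.30 ± 0.78 (SE) between leukaemic and preleukaemic TgSpi1FA-/- blasts of model 1 (adjusted p = 0.282, edgeR's quasi-likelihood test with Benjamini-Hochberg adjustment), with means of 121 ± 111 and 298 ± 44.2 CPM (SD, n = 3 each). The difference between the preleukaemic genotypes was -0.08 ± 0.72 (adjusted p = 0.988 in edgeR). In model 2 the leukaemic means were 214 ± 31.4 (n = 3) against 287 ± 53.7 CPM (SD, n = 4), a log2 fold change of -0.42 ± 0.21 with an edgeR adjusted p of 0.304. Btk thus did not pass the test in any comparison, and a difference in its leukaemic change between both models was not shown (interaction -0.87 ± 0.86, edgeR adjusted p = 0.548).

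Among the members detected in each library, Btk was the one whose correlation with Spi1 passed the threshold in both models. Over the 10 libraries of model 1, Pearson's r of log2(CPM + 0.5) was 0.993 (permutation p = 0.000350, 0.00280 after Benjamini-Hochberg adjustment over the 8 relations computed) and Spearman's rho was 0.745 (adjusted permutation p = 0.0442). Without leukemic_39 and leukemic_28, the libraries farthest from the median of Spi1, r was 0.718 (exact permutation p = 0.0496, adjusted 0.161). The relation thus did not pass the threshold without those 2 libraries. As 8 libraries were then left, dependence on those 2 and the smaller number of libraries cannot be told apart. After centring on group means r was 0.994 (permutation within groups, p = 0.0127, adjusted 0.102). In the 7 libraries of model 2, r was 0.834 (exact permutation p = 0.0109, adjusted 0.0218) and rho 0.857 (adjusted exact permutation p = 0.0476). Without leukemic_606 and preleukemic_837 it was 0.744 (n = 5, adjusted exact permutation p = 0.3), and centred on group means 0.658 (adjusted exact permutation p = 0.333). Neither could have passed, as so few libraries allow no exact permutation p that stays under 0.05 after the adjustment. Csf2ra (r = 0.709, adjusted permutation p = 0.0218) and Cebpb (r = -0.666, adjusted permutation p = 0.00292) passed in model 1, but neither did without leukemic_39 and leukemic_28 (r = 0.762 and -0.669, both with an adjusted exact permutation p of 0.161) or after centring (0.473 and -0.359). For Cd68 r was 0.0992 in model 1.

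**Figure D2:**
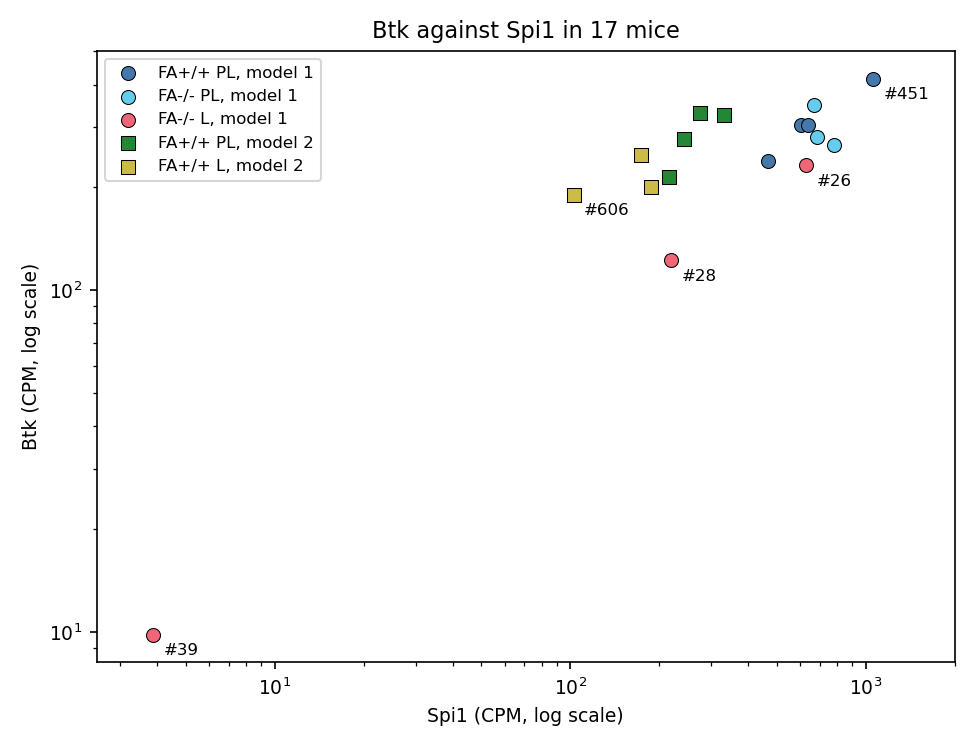
CPM of Btk (y axis) against CPM of Spi1 (x axis), both on log axes, with 1 point for each of the 17 mice, circles for model 1 and squares for model 2, coloured by group, and some mice marked by their number. Mouse leukemic_39 lies apart from the others at 3.88 CPM of Spi1 and 9.82 CPM of Btk, and the squares lie to the left of most circles at like levels of Btk.

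The proportion of Btk to Spi1 differed between the first table of model 1 and the table of model 2. The ratio of their CPM was between 0.340 and 0.557 in 9 libraries of model 1, and 2.53 in leukemic_39, where both were low. In model 2 it was between 0.981 and 1.85. In the second table of model 1 it was between 0.389 and 1.17 outside leukemic_39, with 1.17 in preleukemic_479 and 0.889 in preleukemic_138, and so reached into the range of model 2. TgSpi1FA+/+ preleukaemic blasts are in both models. Their ratio was between 0.393 and 0.510 in the first table of model 1 and between 0.981 and 1.20 in model 2. In preleukaemic TgSpi1FA-/- blasts of the first table it was between 0.340 and 0.520. Between the tables strain, protocol and model differ together, so no test was made of this.

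The receptor genes were low. Csf2ra (ENSMUSG00000059326, chr19:61223957-61228429, minus strand), the alpha chain of the GM-CSF receptor, was the only one detected in each library. It was at 10.0, 8.12, 11.7 and 4.63 CPM in preleukaemic TgSpi1FA+/+, 9.06, 14.2 and 6.37 CPM in preleukaemic TgSpi1FA-/- and 6.93, 2.02 and 2.44 CPM in leukaemic TgSpi1FA-/- blasts. The leukaemic library leukemic_26 overlapped with the preleukaemic ones, and the other leukaemic ones lay below them. Model 2 had 0.706, 4.57, 3.73 and 4.20 CPM of Csf2ra in preleukaemic and 5.41, 2.64 and 5.99 CPM in leukaemic blasts, with overlap.

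Csf2ra had a log2 fold change of -1.38 ± 0.57 between leukaemic and preleukaemic TgSpi1FA-/- blasts, with means of 3.80 ± 2.72 and 9.87 ± 3.97 CPM (SD, n = 3 each), and did not pass the test (adjusted p = 0.128 in edgeR). Without leukemic_26 it was -2.14 with an edgeR adjusted p of 0.0298, so 1 library decided the call. In model 2 the change was 0.50 ± 0.66 (edgeR adjusted p = 0.706), and the interaction between both models was -1.89 ± 0.89 (edgeR adjusted p = 0.199). Between preleukaemic genotypes it was 0.20 ± 0.52 (edgeR adjusted p = 0.953).

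Csf1r (ENSMUSG00000024621, chr18:61100598-61132149), the macrophage colony-stimulating factor receptor, had at most 33 counts in model 1 (0.937 CPM, preleukemic_138) and 28 in model 2 (0.6997 CPM, preleukemic_663). It had 0 counts in preleukemic_479, preleukemic_224 and leukemic_39 of model 1. Its exons share 873 bases with those of Hmgxb3 on the opposite strand, a gene with up to 5621 counts, and whether strand was used in counting is not given in the sources used here. Csf3r (ENSMUSG00000028859, chr4:126024550-126044440), the granulocyte colony-stimulating factor receptor, had 1 count in preleukemic_451, 2 counts in preleukemic_633 and 0 in the other libraries.

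Of the transcription factor genes, Cebpb was the one detected in each library. Cebpb (ENSMUSG00000056501, chr2:167688915-167690418, plus strand, a single exon) encodes C/EBP beta, a factor of macrophage and emergency granulocyte programmes. It was at 9.30, 9.61, 4.94 and 15.4 CPM in preleukaemic TgSpi1FA+/+, 18.4, 4.85 and 7.21 CPM in preleukaemic TgSpi1FA-/- and 19.1, 36.1 and 35.8 CPM in leukaemic TgSpi1FA-/- blasts. Each leukaemic library was above each preleukaemic one, leukemic_26 only just above preleukemic_77. Its level in model 2 was low, at 0.429, 0.875, 0.213 and 0.420 CPM in preleukaemic and 0.385, 0.685 and 0.341 CPM in leukaemic blasts.

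The leukaemic TgSpi1FA-/- mean of Cebpb was 30.3 ± 9.75 against 10.2 ± 7.26 CPM (SD, n = 3 each), a log2 fold change of 1.58 ± 0.56, which did not pass edgeR's quasi-likelihood test (adjusted p = 0.0902) but passed DESeq2 (adjusted p = 0.0282). Without preleukemic_77 it was 2.34 with an edgeR adjusted p of 0.0453. The exact two-sided permutation test gave p = 0.1, the smallest it allows. In model 2 the change was -0.04 ± 0.59 (edgeR adjusted p = 0.976), and the interaction was 1.60 ± 0.82 (edgeR adjusted p = 0.233), so a difference between both models was not shown. The preleukaemic genotypes differed by 0.05 ± 0.52 (edgeR adjusted p = 0.988).

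The values of Cebpb depended on the table they were read from. In the second table Cebpb was at 2.14, 1.47, 0.425 and 1.37 CPM in preleukemic_445, preleukemic_479, preleukemic_451 and preleukemic_138 and at 1.33, 3.32 and 0.710 CPM in leukemic_26, leukemic_28 and leukemic_39. The median difference in log2(CPM + 0.5) between the tables, first minus second, was 3.09 (range 1.89 to 4.91 over 7 mice), and 1.06% of 13078 genes differed by as much. For the comparison of leukaemic TgSpi1FA-/- with preleukaemic TgSpi1FA+/+ blasts, which was added after values were seen, the log2 fold change of Cebpb was 1.63 ± 0.52 in the first table (edgeR adjusted p = 0.0822) and 0.41 in the second (edgeR adjusted p = 0.789). In the first table edgeR called 0 of 6 members in this comparison, against 7.01% of all genes, with 1 (Cebpb) at an unadjusted p under 0.05 against 27.2%. The groups did not overlap for 3 (Cebpb, Btk and Fcgr3), against 25.7% of all genes, but in the second table the groups of all 3 overlapped. Cebpb shares 312 exon bases with Tmem189 on the opposite strand, which had up to 2439 counts in model 1. Their part in the result was not tested.

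**Figure D3:**
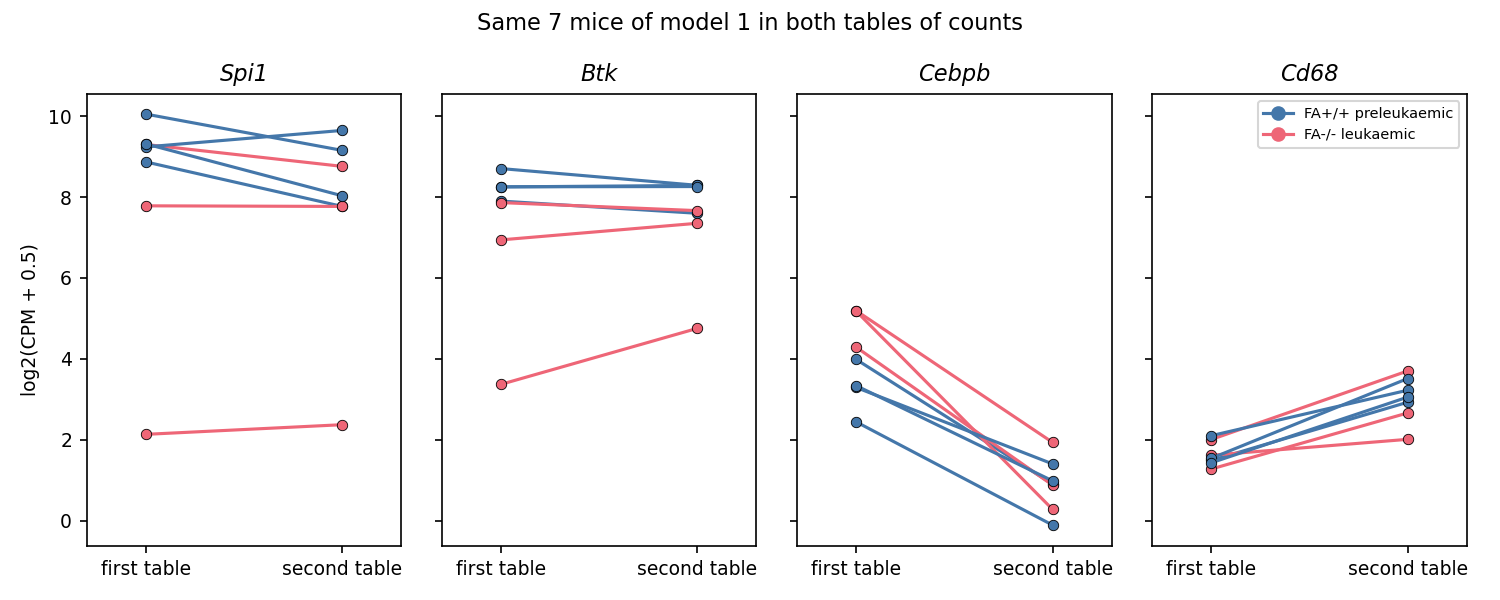
log2(CPM + 0.5) of Spi1, Btk, Cebpb and Cd68 in 7 mice of model 1, joined by a line for each mouse from the first to the second table of counts. The lines of Btk are near level except in leukemic_39, where Btk is at 9.82 CPM in the first and 26.5 CPM in the second table, those of Cebpb go down in each mouse by between 1.89 and 4.91 on the log2 scale, and those of Cd68 go up.

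Cebpa (ENSMUSG00000034957, chr7:35119293-35121928, plus strand, a single exon) encodes C/EBP alpha, which is required for granulocyte and monocyte progenitors. In model 1 it had 0, 0, 2 and 1 counts in preleukaemic TgSpi1FA+/+, 0 in each preleukaemic TgSpi1FA-/- and 2, 62 and 5 counts in leukaemic TgSpi1FA-/- blasts. The count thus came mostly from leukemic_28, at 1.58 CPM, while leukemic_39 was at 0.127 CPM. It was below the filter on low counts of the main fit. Read against 3 counts per preleukaemic library, the leukaemic mean was at least 6.24-fold higher than in preleukaemic TgSpi1FA-/- blasts, and without leukemic_28 no bound could be given. DESeq2, which tested it, gave an adjusted p of 0.0123. The second table holds no preleukaemic TgSpi1FA-/- blasts. There leukemic_28 was at 1.77 CPM, leukemic_26 at 0.141 CPM and leukemic_39 at 0.0546 CPM. The latter lay below preleukemic_138 of TgSpi1FA+/+, at 0.242 CPM (26 counts), as did leukemic_26, so these groups overlapped. Model 2 had 14 counts in preleukemic_812, 1 in preleukemic_633 and 0 in the other libraries.

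Of the surface and lysosomal protein genes, Cd68 was the one detected in each library. Cd68 (ENSMUSG00000018774, chr11:69664213-69666153, minus strand) encodes a lysosomal glycoprotein used as a macrophage marker. It was at 2.40, 2.19, 3.78 and 2.30 CPM in preleukaemic TgSpi1FA+/+, 3.45, 2.16 and 1.62 CPM in preleukaemic TgSpi1FA-/- and 3.51, 1.92 and 2.56 CPM in leukaemic TgSpi1FA-/- blasts. The level in model 2 was 2.85, 4.95, 9.78 and 5.71 CPM in preleukaemic and 7.59, 8.58 and 6.61 CPM in leukaemic blasts. The groups overlapped in each comparison, and leukemic_39, the library with least Spi1, was within the range of the others.

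The leukaemic change of Cd68 was 0.14 ± 0.43 on the log2 scale in model 1 (means 2.66 ± 0.800 and 2.41 ± 0.939 CPM, SD, n = 3 each; edgeR adjusted p = 0.850). That of model 2 was 0.38 ± 0.47 (7.60 ± 0.983, n = 3, against 5.82 ± 2.91 CPM, SD, n = 4; edgeR adjusted p = 0.682). Between preleukaemic genotypes it was -0.15 ± 0.40 (edgeR adjusted p = 0.955). In the second table Cd68 was higher than in the first in each of the 7 mice, by a median difference in log2(CPM + 0.5) of -1.44 (first minus second).

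Ptprc (ENSMUSG00000026395, chr1:138062861-138175708, minus strand) encodes CD45, the tyrosine phosphatase of nucleated blood cells. Its counts were uneven between mice of the same group. Model 1 had 0, 3, 131 and 15 counts in preleukaemic TgSpi1FA+/+, 1, 3 and 0 in preleukaemic TgSpi1FA-/- and 29, 39 and 0 in leukaemic TgSpi1FA-/- blasts. In model 2, preleukemic_812 had 482 counts (12.9 CPM), while the other 6 libraries were between 0 and 0.425 CPM. In the second table preleukemic_445, which had 0 counts in the first, was at 6.95 CPM, and this is the mouse that did not correlate best with its own number.

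None of the fitted differences of Ptprc passed the test. Against 3 counts per library, its mean was at least 6.32-fold higher in leukaemic than in preleukaemic TgSpi1FA-/- blasts (fitted log2 fold change 3.75 ± 2.18, edgeR adjusted p = 0.266), with bounds of 4.21 without leukemic_28 and 9.49 without leukemic_39. It was at least 12.5-fold lower in preleukaemic TgSpi1FA-/- than in preleukaemic TgSpi1FA+/+ blasts (fitted -4.72 ± 2.18, edgeR adjusted p = 0.586), and this bound was 1.84 without preleukemic_451. For model 2 the fitted change was -4.50 ± 2.41 (edgeR adjusted p = 0.337). The interaction between both models, 8.27 ± 3.47, did not pass either (edgeR adjusted p = 0.149).

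Fcgr3 (ENSMUSG00000059498, chr1:171051174-171064935, minus strand) encodes a low-affinity IgG receptor of macrophages and natural killer cells. In model 1 it had 3, 5, 0 and 6 counts in preleukaemic TgSpi1FA+/+, 0, 3 and 111 in preleukaemic TgSpi1FA-/- and 19, 47 and 17 counts in leukaemic TgSpi1FA-/- blasts. Apart from preleukemic_40, at 3.59 CPM, each leukaemic library was above each preleukaemic one. Its leukaemic change against TgSpi1FA-/- was -0.77 ± 1.52 (edgeR adjusted p = 0.767), and without preleukemic_40 it was 3.88 and did not pass either. Between preleukaemic genotypes it was 3.48 ± 1.55 (edgeR adjusted p = 0.577), and without preleukemic_40 -1.17. In model 2 it had at most 7 counts, in leukemic_921, and was below the filter. Itgam (ENSMUSG00000030786, chr7:128062640-128118491, plus strand), the integrin alpha M chain CD11b, had 2 counts in preleukemic_77 and 0 in the other 9 libraries of model 1. It shares 3450 of its 5024 exon bases with Gm49368 on the same strand, so reads in those bases may not have been assigned to either gene.

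Across the members, edgeR made no call in any comparison. Of the 6 members tested in model 1, 0 passed edgeR's quasi-likelihood test between leukaemic and preleukaemic TgSpi1FA-/- blasts, against 13.3% of all 13393 genes tested, with 3 members higher, 3 lower and a median log2 fold change of -0.31 against -0.00 over all genes. At an unadjusted p under 0.05 there were 2 (Csf2ra and Cebpb), against 32.4% of all genes, and DESeq2 called 2 (Cebpa and Cebpb) of the 7 members to which it gave an adjusted p, against 19.8%. The groups did not overlap for Cebpb and Btk among the 6 tested, against 38.7% of all genes. Between preleukaemic genotypes edgeR called 0 of 6, with 0 at an unadjusted p under 0.05 and 0 by DESeq2. Over all genes edgeR called 0.00747%, or 1 gene, 8.65% had an unadjusted p under 0.05, DESeq2 called 1.87%, and the groups of 8.53% did not overlap, while those of each of the 6 members did. In model 2 edgeR called 0 of 5, with 0 at an unadjusted p under 0.05, 0 by DESeq2 and 0 whose groups did not overlap. Over all 12970 genes edgeR called 0%, 19.9% had an unadjusted p under 0.05, DESeq2 called 3.45%, and the groups of 20.1% did not overlap. In the interaction edgeR called 0 members, against 4.61% of the 14597 genes tested, with 1 (Ptprc) at an unadjusted p under 0.05 against 25.8%. Model 1 comparisons share the preleukaemic TgSpi1FA-/- libraries.

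**Figure D4:**
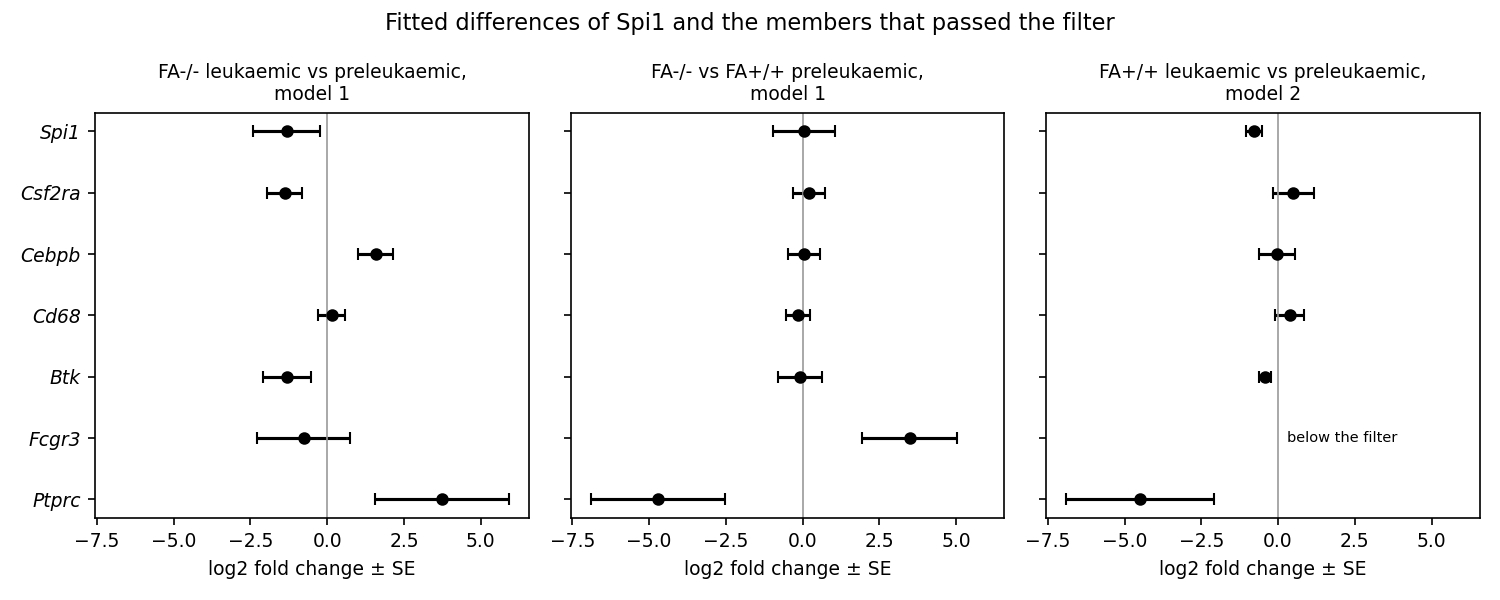
Log2 fold change ± SE of Spi1 and 6 members by edgeR in the leukaemic comparison of TgSpi1FA-/- (model 1), the preleukaemic comparison of genotypes (model 1) and the leukaemic comparison of TgSpi1FA+/+ (model 2). Cebpb at 1.58 and Csf2ra at -1.38 in the first have short error bars beside those of Ptprc and Fcgr3, and Fcgr3 has no point in model 2, where it was below the filter.

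A list of 65 other genes of the myeloid PU.1 programme was read beside the members. In model 1, 35 of them were tested, of which 18 were higher and 17 lower in leukaemic than in preleukaemic TgSpi1FA-/- blasts (median 0.13). 2 of the 35 fell and 0 rose, against 6.49% of all genes that fell and 6.82% that rose, and 11 had an unadjusted p under 0.05, against 32.4% of all genes. Cd48, a surface protein of blood cells, was at 6.04, 36.4 and 23.2 CPM in preleukaemic and 0.274, 0.281 and 0 CPM in leukaemic TgSpi1FA-/- blasts. It fell by 6.87 on the log2 scale (SE 1.86, edgeR adjusted p = 0.0407), and in preleukaemic TgSpi1FA+/+ blasts it was between 0.199 and 99.9 CPM, the lowest in preleukemic_138.

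Fcgr2b, the inhibitory IgG receptor, was at 11.2, 3.86 and 17.2 CPM in preleukaemic and 1.86, 0.664 and 0.127 CPM in leukaemic TgSpi1FA-/- blasts, and fell by 3.60 on the log2 scale (SE 0.97, edgeR adjusted p = 0.0406). Cd48 passed the test no longer when any 1 of the 6 libraries was left out, with edgeR adjusted p between 0.0626 and 0.117, and Fcgr2b only without leukemic_26 (0.0229 against 0.0671 to 0.133). DESeq2 gave an adjusted p of 2.33e-05 for Cd48 and 0.000447 for Fcgr2b. Between preleukaemic genotypes edgeR called 0 of 35 (6 at an unadjusted p under 0.05, against 8.65% of all genes), with 9 higher and 26 lower. In model 2 it called 0 of 34 (5 at an unadjusted p under 0.05, against 19.9% of all genes), with 7 higher and 27 lower and a median of -0.66 against -0.03 over all genes. The list's most abundant genes were Rac2 (168 CPM per kb), Plek (125) and Alox5 (76.1) in model 1, and Plek (173), Cyba (146) and Rac2 (139 CPM per kb) in model 2.

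Mouse leukemic_39 stood apart in Btk and in many genes of this list, which was seen in the values and then counted, with no test. Its Btk level was 12.5-fold, and its Spi1 level 56.6-fold, below the lowest of the other 9 libraries of model 1. leukemic_39 was the lowest library in 21 of the 35 listed genes (60%), against 20.2% of all 13393 genes, and at least 5-fold below the other 9 in 13 of 35 (37.1%), against 1.52% of all genes. Among the members tested, 1 of 6, Btk, was so.

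The genes that were low in leukemic_39 included signalling and cytoskeletal genes of blood cells. Laptm5, a lysosomal membrane protein gene, was at 1.142 CPM in leukemic_39 and 101 to 809 CPM in the others, Vav1, a guanine nucleotide exchange factor gene, at 1.17 against 58.1 to 189 CPM, and Was, which encodes the Wiskott-Aldrich syndrome protein, at 0.685 against 35.0 to 204 CPM. Cyba, a gene of the NADPH oxidase, had 1 count in leukemic_39. Others did not follow this: the kinase gene Lyn was at 98.8 CPM in leukemic_39 and 71.5 to 137.7 CPM in the others, and Csf2ra, Cebpb and Cd68 were within the range of the others too. In the second table leukemic_39 had 4.67 CPM of Spi1 and 26.5 CPM of Btk. There it was the lowest of the 7 mice for Csf2ra, at 1.80 against 3.77 to 19.8 CPM, and for Cd68, at 3.52 against 5.83 to 12.5 CPM.

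**Figure D5:**
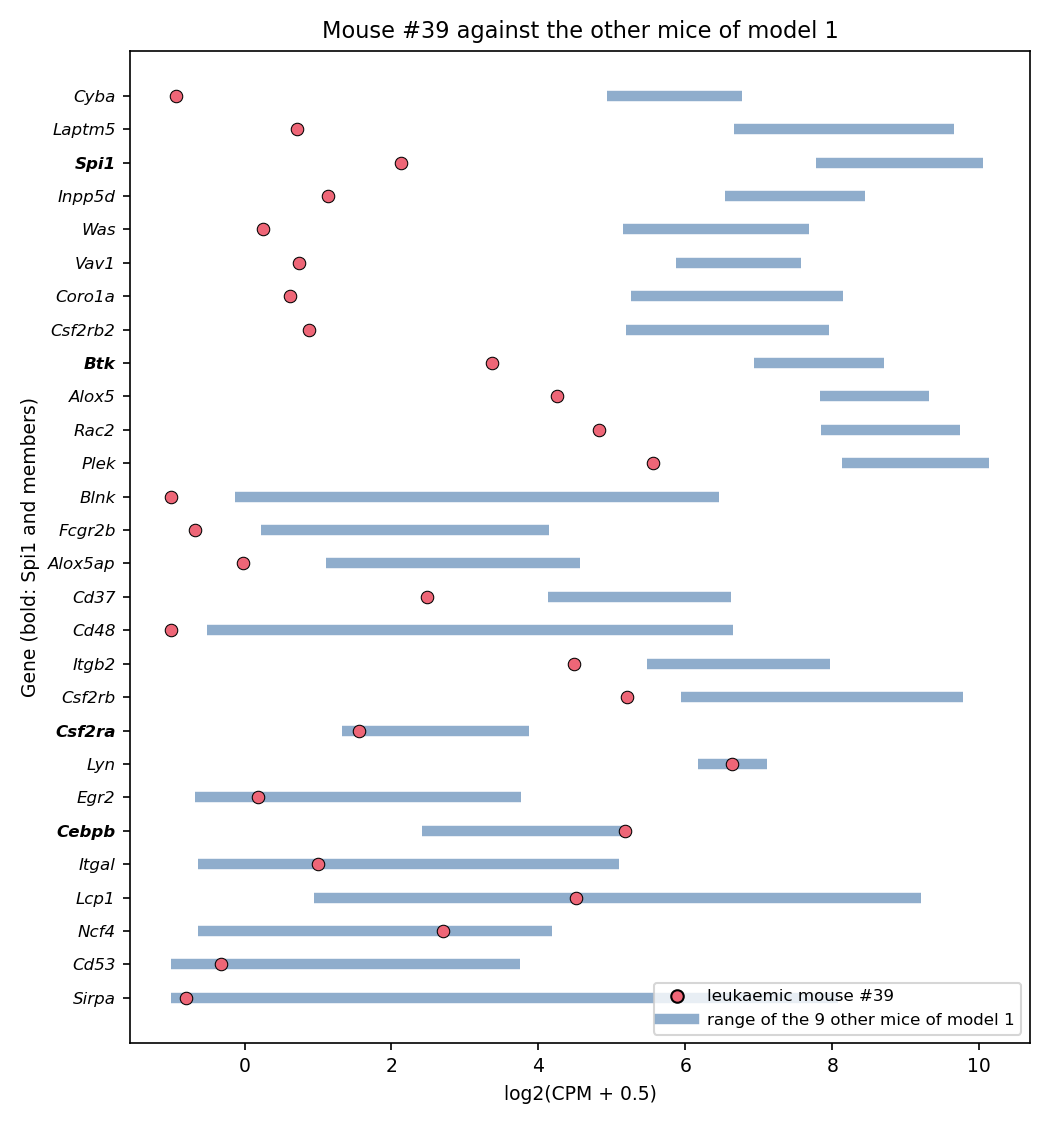
log2(CPM + 0.5) on the x axis of Spi1, members (bold) and other listed genes, 1 of them left out, that reached 10 CPM in another library of model 1, with a point for mouse leukemic_39 (#39 in the plot) and a bar from the lowest to the highest of the other 9 libraries. Spi1, Btk, Laptm5, Was and Vav1 have their point far to the left of the bar, and Lyn and Cebpb have it within the bar.

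The genes whose pattern over the 10 libraries of model 1 was most like that of a member were taken from the 13393 tested genes by Pearson's r of log2 CPM, as a description. For Csf2ra they were Eif2ak3 (0.970), Usp20 (0.968) and Gins3 (0.966). For Cebpb they were Fzd9 (0.980), Klhl10 (0.970) and Slc1a3 (0.958), and for Cd68 Apmap (0.905), Cdk1 (0.874) and 1700120G11Rik (0.873). For Btk, added after its values were seen, they were Elf4 (0.997), Dock2 (0.996) and Was (0.996), with Spi1 in rank 5. These points share leukemic_39, which lies apart in many genes.

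Markers of other blood cells were low beside the erythroid ones. Of 12 macrophage and monocyte genes, 7 were over 3 counts in some library of model 1 and 3 were at 0, and their summed level was 2.28 to 10.7 CPM in preleukaemic TgSpi1FA+/+, 3.45 to 8.25 CPM in preleukaemic TgSpi1FA-/- and 8.42 to 17.3 CPM in leukaemic TgSpi1FA-/- blasts. The leukaemic libraries were thus above the preleukaemic TgSpi1FA-/- ones in this sum as in Cebpb, leukemic_39 only just above preleukemic_40. Ccr2 was its most abundant gene by mean, but did not lead the sum in each library. Over the libraries of model 1, Ccr2 was between 0.152 and 15.9 CPM and Mertk between 0 and 7.41 CPM. Of the 3 genes of this list that were tested, 2 were higher and 1 lower in leukaemic TgSpi1FA-/- blasts. For model 2 the sum was 5.998 to 27.4 CPM in preleukaemic and 1.53 to 16.0 CPM in leukaemic blasts. The neutrophil sum was at most 0.852 CPM in model 1 and 1.29 CPM in model 2, the B cell sum at most 0.664 and 6.10 CPM, and the T and NK cell sum, led by Lck, at most 5.97 and 7.92 CPM. Each of these sums was higher in leukaemic than in preleukaemic TgSpi1FA-/- blasts without overlap. Over all genes tested, the groups of 38.7% did not overlap in this comparison. The neutrophil sum was 0.482 to 0.818 against 0.146 to 0.259 CPM, the B cell sum 0.521 to 0.664 against 0 to 0.0328 CPM, and the T and NK cell sum 4.01 to 5.97 against 0.819 to 1.49 CPM. In preleukaemic TgSpi1FA+/+ blasts of model 1 these sums were 0.222 to 0.852, 0 to 0.369 and 0.929 to 3.72 CPM. The neutrophil range there covered the leukaemic one, while the B cell and the T and NK cell ranges lay below it. Both the neutrophil and the B cell sum rest on few counts. The T and NK cell sum of model 1 rests mostly on Lck, at a mean of 2.44 CPM against 0.0829 CPM for Cd3g, the next gene. Of its 8 genes, 3 were at 0.

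Other lists ranged more widely. The mast cell sum, led by Hdc, was 5.64 to 209 CPM in model 1 and, in model 2, 31.2 to 94.9 CPM in preleukaemic and 159 to 211 CPM in leukaemic blasts. The megakaryocyte sum was 45.8 to 60.2 CPM in preleukaemic and 175 to 277 CPM in leukaemic TgSpi1FA-/- blasts, 62.0 to 205 CPM in preleukaemic TgSpi1FA+/+ blasts and 11.2 to 117 CPM in model 2. The erythroid sum was 3810 to 4724 CPM in preleukaemic and 2233 to 3587 CPM in leukaemic TgSpi1FA-/- blasts. The stroma and endothelium sum, led by Col1a2, ranged from 3.27 to 274 CPM in model 1 and from 0.0568 to 31.9 CPM in model 2. The part of these cells in the levels of the members was not tested.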

How the data were processed

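RNA-seq (TruSeq Stranded mRNA) was read from erythroid blasts of 17 mice. The authors deposited raw counts per gene, made per the labels with bcl2fastq 2.17.1.14, STAR 2.5.3a and HTSeq 0.6.1p1 on mm10. The annotation release and strand setting are not given in the sources used here. The tables of model 1 and model 2 and a second count table for 7 mice of model 1 (35497594 to 171572736 counts per library) were used, each normalized on its own. A further copy of the model 2 table was not used.

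The members and lists were chosen with earlier results of these data known. The text names all members and Spi1, up to 6 called genes of the other list (otherwise the 3 highest per kilobase, as levels), the marker lists' sums and leading genes, and the 3 most alike genes for a member of each role.

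Counts were filtered with filterByExpr, scaled by TMM and tested with edgeR 4.0.16 (glmQLFit, glmQLFTest, R 4.3.3), with all groups of a table in 1 fit and both tables in 1 fit for the interaction. Calls needed a fold change of 1.5 or more either way and, after Benjamini-Hochberg adjustment, a p under 0.05. Each library comes from 1 mouse, so the spread that p-values measure holds mouse, culture and library together. Nothing says which mice shared a culture day, so a shared day could not be accounted for. Exact permutation tests used CPM. The script was tested on simulated data. DESeq2 1.42.0, its size factors, no filter, only the compared groups and leaving out each mouse were alternatives. Intervals and the limit of 3 counts cover counting error only. Of the identifiers, 99.8% of model 1 and 99.9% of model 2 were in GENCODE M21 (GRCm38), which gave positions and exon overlaps. A gene of the other list is not reported here by name.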

Additional observations from a re-analysis of the deposited data

Results flagged for a closer look

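Of the 16 groups of 4 mice tested by Dixon's criterion on CPM at the 95% level, 4 held a mouse far from the other 3. The criterion flags about 1 in 20 by chance only where values are normally distributed. Levels near 0, as of Cebpa and Ptprc, need not be, and the same mice entered the tests of several genes. An excess over chance is thus not shown. In preleukaemic TgSpi1FA+/+ blasts of model 1, preleukemic_451 was at 3.78 CPM of Cd68 and 4.20 CPM of Ptprc, each above the other mice. In preleukaemic TgSpi1FA+/+ blasts of model 2, preleukemic_812 was at 0.373 CPM of Cebpa and 12.9 CPM of Ptprc, each above the other mice.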

How the results depend on the processing

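No paired analysis was possible because the mouse numbers are not shared between groups. Between leukaemic and preleukaemic TgSpi1FA-/- blasts 1782 genes were called by edgeR and 3099 by DESeq2, which called 2 members (Cebpa and Cebpb), and 414 (without leukemic_28) to 2319 (without leukemic_26) genes and 0 to 1 member when 1 mouse was left out. For preleukaemic genotypes the 1 call became 4 with no filter, 256 in DESeq2 and 1 to 16 with a mouse left out (16 without preleukemic_451). In model 2 the 0 calls of edgeR (2587 genes at an unadjusted p under 0.05) became 470 in DESeq2 and 0 to 1 with a mouse left out. For the interaction 673 became 279 with no filter and 1 (without leukemic_28) to 1359 (without preleukemic_812). For the comparison added after values were seen, 939 became 267 in the second table. Of the 4 correlations with Spi1 past the threshold, 0 passed when centred on group means and 0 without the 2 farthest libraries. For that of Btk in model 2 these tests cannot decide. Its few libraries allow no exact permutation p that stays under 0.05 after the adjustment.

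Signs that turned belonged to differences that had not passed. In the leukaemic TgSpi1FA-/- comparison leaving out a mouse gave -1.34 to 3.88 for Fcgr3 and -0.10 to 0.51 for Cd68. For preleukaemic genotypes it gave -0.11 to 0.31 for Spi1 (-0.0096 with preleukemic_445 and preleukemic_479 summed), -0.71 to 0.38 for Cebpb, -0.50 to 0.0714 for Cd68, -0.21 to 0.0693 for Btk, -0.17 to 0.43 for Csf2ra and -1.17 to 4.06 for Fcgr3. It gave -0.42 to 0.41 for Cebpb in model 2 and, in the interaction, -0.63 to 0.11 for Cd68, -5.65 to 1.31 for Fcgr3 and -1.90 to 0.0313 for Spi1. The second table gave 0.13 for Ptprc in the added comparison. In model 2 the correlations of Csf2ra, Cebpb and Cd68 with Spi1 were -0.210, 0.0442 and 0.0962 without the 2 farthest libraries, and that of Cd68 was 0.179 when centred. Cd48 had an adjusted p of 0.0634 and Fcgr2b of 0.0568 in edgeR with preleukemic_445 and preleukemic_479 summed, and Fcgr2b of 0.0870 with only the compared groups. The cause was not tested. Counts near 3 limit Csf1r, Csf3r, Itgam, Cebpa, Fcgr3 and Ptprc.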
